A study of Homo sapiens with 4 samples.

Results

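Histone genes were followed in the human erythroleukaemia line HEL after knockdown of AFF4. The members were chosen by symbol from a table of 28103 genes: 74 clustered histone genes, whose symbols start with HIST1H, HIST2H, HIST3H or HIST4H, and 11 variant histone genes, H1F0, H1FX, H2AFJ, H2AFV, H2AFX, H2AFY, H2AFY2, H2AFZ, H3F3A, H3F3B and H3F3C. Antisense names were left out. Of the 85 members, 28 had enough reads to be tested, 19 clustered and 9 variant.

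The series holds 4 poly(A) RNA libraries, 2 labelled Ctrl with a WT genotype and 2 labelled AFF4_KD with the genotype AFF4 knockdown, all from HEL, which the labels describe as a human erythroblast. No treatment, time point or means of knockdown is given, and AFF4 holds together the super elongation complex, through which the kinase P-TEFb reaches paused RNA polymerase II. All 15 erythroid and megakaryocytic markers checked had reads, with HBG1 and ITGB3 called lower in the knockdown, while 16 markers of other cell types summed to 70 to 80 reads in a library, with 7 of them at 0 throughout. Whether replicates were separate cultures is not stated, so p-values reflect the spread between libraries alone, and that spread may be technical.

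Clustered histone genes supply the bulk of histone protein while DNA is being copied. Their short, intron-poor transcripts usually end in a conserved stem-loop bound by SLBP in place of a poly(A) tail, so oligo(dT) capture recovers mainly the minority of molecules that are polyadenylated. Variant genes such as H2AFZ and H3F3B are expressed outside S phase as well, carry introns in most cases and end in a poly(A) tail, and their products replace the canonical histones at particular places in chromatin.

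The stem-loop is the sequence that bears on how oligo(dT) capture sees the clustered genes. The arm GGCNCT, the loop TNTN and the arm AGNGCC, in 1 run of 16 bases with N for any base, were searched on the sense strand of GENCODE v29 transcripts (GRCh38) and found in 33 of 74 clustered genes (44.6%), in 1 of 11 variant genes, and in 0.17% of 25861 matched genes of the table. Many clustered genes are annotated there as the coding region alone, in which the motif cannot appear. The forms carried by the tested members described below are printed 5′ to 3′ as DNA, with the loop in capitals and the arms of the stem in lower case:
HIST1H2AC, HIST3H2A, HIST1H2AI, HIST2H2BE, HIST1H2BG and HIST1H3H: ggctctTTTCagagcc
HIST1H3G, HIST1H2BC and HIST1H2BD: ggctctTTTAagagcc
HIST1H2AG: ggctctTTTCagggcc
HIST1H4H: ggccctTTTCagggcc
H2AFX: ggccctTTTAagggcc
The H2AFX form was found in no other member, and its gene is the variant known to make both stem-loop and polyadenylated transcripts. The hexamer AATAAA, a polyadenylation signal, lay in the last 60 bases of a transcript in 22 of the 74 clustered genes (29.7%), in 6 of the 11 variants and in 65.0% of all matched genes. Among the genes printed above, HIST1H2AC, HIST1H2AG, HIST1H2BD, HIST2H2BE, HIST1H3G, HIST1H3H and HIST1H4H held both the stem-loop and the hexamer. A single exon was annotated for 81.1% of clustered genes, 27.3% of variant genes and 14.2% of all genes.

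One control library stood apart before any comparison was made. The Ctrl libraries held 19129008 and 14903878 counted reads and the knockdown libraries 17955867 and 16643610. RNAs that mostly lack a poly(A) tail summed to 49.9 CPM (reads scaled to the TMM-adjusted library size) in Ctrl 1 and 167.5 in Ctrl 2, against 54.4 in knockdown 1 and 40.2 in knockdown 2, and 16 of the 19 such RNAs with a read were highest in Ctrl 2. RN7SK, the scaffold RNA that holds P-TEFb inactive, had 76 reads in Ctrl 1 and 401 in Ctrl 2, against 79 in knockdown 1 and 84 in knockdown 2. GC-rich genes were also high in that library: the median log2 ratio of Ctrl 2 to Ctrl 1 ran from -0.40 in the fifth of genes lowest in GC to 0.68 in the fifth highest, against -0.05 to 0.11 for knockdown 2 over knockdown 1. Ctrl 2 is therefore given apart beside the histone results, and its part in them was not tested.

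The knocked-down gene followed the labels. AFF4 had 1650 and 1033 reads in Ctrl and 338 and 319 in the knockdown, or 78.7 ± 13.6 against 18.8 ± 0.187 CPM (mean ± SD, n = 2 each). Its change on the log2 scale was -2.07 ± 0.19 (± SE, adjusted p = 0.0268 by edgeR's quasi-likelihood test). The main edgeR values here are adjusted over 13572 genes, and those of other settings over the genes that each setting tested. Under a filter of at least 5 CPM in 2 libraries AFF4 had an adjusted p of 0.0552.

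Of the tested histone genes, 1 was called as lower in the knockdown and none was called as higher. That gene was HIST1H1C, which encodes the linker histone H1.2, and it was the 1 called among 19 tested clustered genes, while 0 of the 9 tested variants were called. The background is a call for 0.641% of all tested genes, 0.295% lower and 0.346% higher. DESeq2, which called 3.21% of the genes it gave an adjusted p, and limma-voom, which called 0.678%, each gave the same counts for clustered and variant genes. At an unadjusted p under 0.05, 2 clustered genes were lower and 0 higher, and 1 variant was lower and 2 higher, against 15.0% of all tested genes, 8.19% lower and 6.79% higher. HIST1H3G, 1 of these 2 clustered genes, had enough reads to be tested only through the controls.

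**Figure D1:**
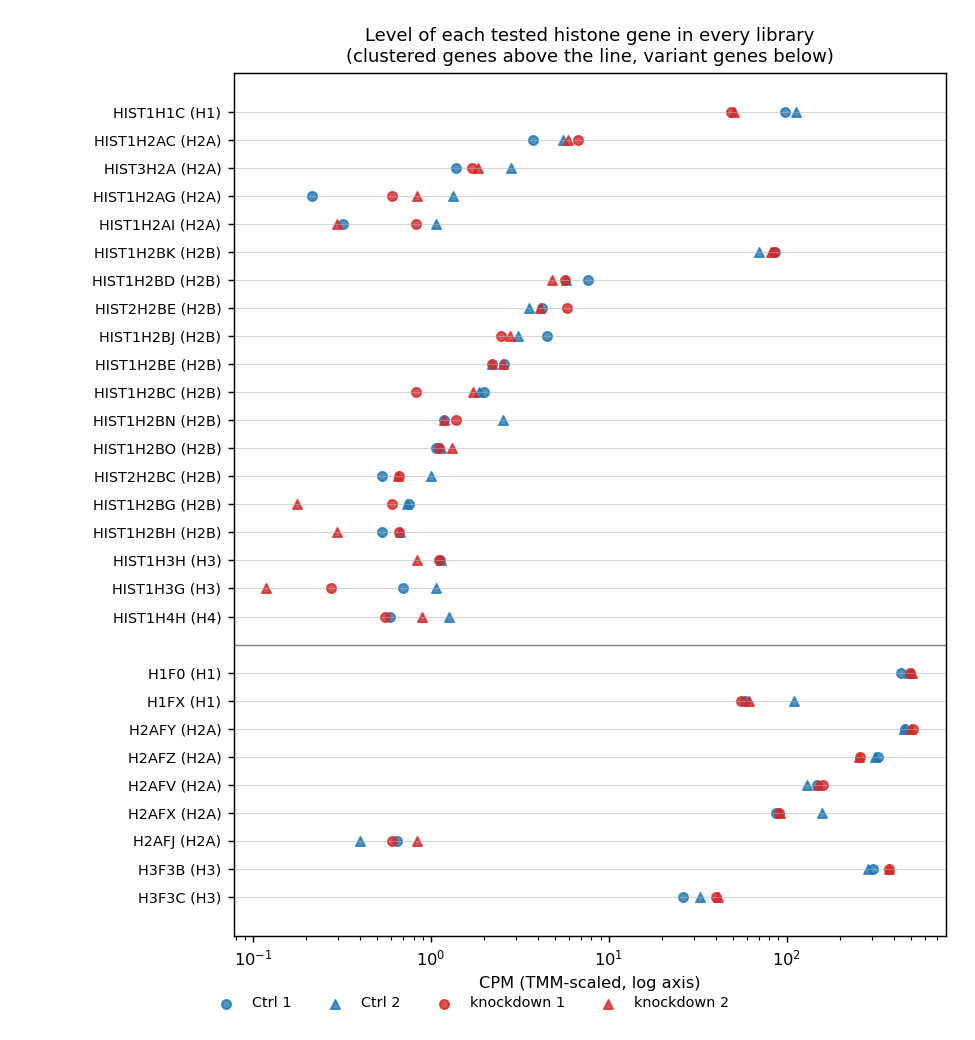
Level of the 19 clustered and 9 variant histone genes that were tested, in CPM on a log axis, with 1 point per library (blue, Ctrl; red, AFF4 knockdown; circles, replicate 1; triangles, replicate 2). HIST1H1C and HIST1H2BK lie at 48.4 CPM or more in every library and the other clustered genes at 7.60 CPM or less, while most variants lie above 50 CPM.

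Most reads on the clustered genes came from a pair of them. All 74 rows together took 221.5 CPM in Ctrl 1 and 234.6 in Ctrl 2, against 173.1 in knockdown 1 and 169.5 in knockdown 2. HIST1H1C and HIST1H2BK, an H2B gene, made up between 76.9% and 83.0% of those reads in each library. HIST1H1C alone gave 44.3% in Ctrl 1 (95% Wilson interval 42.8 to 45.8) and 48.2% in Ctrl 2 (46.6 to 49.9), and 27.9% in knockdown 1 (26.4 to 29.5) and 29.7% in knockdown 2 (28.1 to 31.5). The interval covers counting error only. The share was lower in both knockdown libraries than in both controls. Intervals did not overlap between the groups, nor between Ctrl 1 and Ctrl 2, so their separation does not measure a group difference. Of the 19 tested clustered genes, 15 had a mean under 5 CPM, so most members rested on few reads.

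The 11 variant rows together were far more abundant, at 1852.5 CPM in Ctrl 1 and 1976.0 in Ctrl 2, against 1992.4 in knockdown 1 and 1986.0 in knockdown 2. Scaled by the longest annotated coding transcript, control levels in CPM per kilobase ran in the order H2AFZ (326.0), HIST1H2BK (204.4), H1F0 (197.6), H2AFY (164.9), HIST1H1C (164.5), H3F3B (109.4), H2AFX (76.1), H1FX (55.9), H2AFV (36.5), H3F3C (27.8) and H2AFJ (0.811). H2AFY and HIST1H1C differed by less than their spread. Some of these lengths are coding-only, including those of HIST1H1C and HIST1H2BK, which can raise their values, so the order is approximate.

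Linker histones bind the DNA that enters and leaves the nucleosome. HIST1H1C (GENCODE v29, hg38, chromosome 6, 26055787 to 26056428, minus strand, a single exon annotated without UTRs) had 1832 reads in Ctrl 1 and 1689 in Ctrl 2, against 875 in knockdown 1 and 849 in knockdown 2. The mean of the controls was 105.6 ± 10.6 CPM and that of the knockdown 49.4 ± 1.46 CPM (± SD, n = 2 each). Both knockdown libraries lay under both controls, and in bulk RNA less RNA per cell cannot be told apart from fewer cells of a given kind or cycle phase. The log2 fold change of -1.10 ± 0.16 (SE) passed the test (edgeR adjusted p = 0.0415), and HIST1H1C remained called in DESeq2 (adjusted p = 2.05e-05) and limma-voom (adjusted p = 0.0445). It was -1.19 without Ctrl 1 and -0.99 without Ctrl 2, called both times, in fits that called 44.0% and 48.4% of all genes. The edgeR call ended with library-size scaling (adjusted p = 0.0509), with the 5 CPM filter (adjusted p = 0.0712), without knockdown 1 (adjusted p = 0.62) and without knockdown 2 (adjusted p = 0.654), settings that called 0.545%, 0.0462%, 0.331% and 0.366% of all genes.

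The remaining linker genes were at very different levels. HIST1H1B, HIST1H1D, HIST1H1E and HIST1H1T had between 1 and 9 reads in each library and were not tested, and HIST1H1A had none. HIST1H1B had 3 and 9 reads in Ctrl and 2 and 2 in the knockdown. HIST1H1E had 3 and 9 against 5 and 2. HIST1H1D had 3 and 4 against 1 and 1. In CPM these genes, and HIST1H1T, were highest in Ctrl 2, and no fold is given at these depths. That library was high in RNAs that mostly lack a poly(A) tail, and was above Ctrl 1 in GC-rich genes.

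The promoters of these linker genes are shown because HIST1H1C was called while its neighbours gave almost no reads. From RefSeq (GRCh38.p14), the bases from -130 to -1 relative to the gene start are printed 5′ to 3′ on the gene's strand, with AAACACA (the H1 box), CCAAT (bound by NF-Y) and TATAAA in capitals, on either strand:
HIST1H1C (chr6:26056471-26056600, minus strand): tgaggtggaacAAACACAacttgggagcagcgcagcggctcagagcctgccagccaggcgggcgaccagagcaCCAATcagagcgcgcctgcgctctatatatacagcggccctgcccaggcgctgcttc
HIST1H1D (chr6:26234988-26235117, minus strand): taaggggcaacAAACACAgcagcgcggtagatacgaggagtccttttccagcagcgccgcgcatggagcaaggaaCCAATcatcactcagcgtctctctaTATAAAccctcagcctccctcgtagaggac
HIST1H1E (chr6:26156199-26156328, plus strand): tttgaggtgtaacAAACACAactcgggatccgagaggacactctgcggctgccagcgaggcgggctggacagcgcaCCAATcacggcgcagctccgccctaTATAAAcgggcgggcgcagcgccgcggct
HIST1H1B (chr6:27867589-27867718, minus strand): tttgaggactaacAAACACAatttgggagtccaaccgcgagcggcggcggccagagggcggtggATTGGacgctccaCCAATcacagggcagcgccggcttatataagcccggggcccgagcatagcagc
The H1 box began at base -119 in HIST1H1C and HIST1H1D and at -117 in HIST1H1E and HIST1H1B, and a CCAAT box began at -57, -55, -54 and -53 in the same order of genes. HIST1H1D and HIST1H1E held TATAAA, at -30 and -29, and these letters were not in the printed windows of HIST1H1C and HIST1H1B. Only exact matches were searched, and the letters tatata occur in the windows of both HIST1H1C and HIST1H1B. In the RefSeq windows from 250 bases before to 50 after the start, AAACACA was found in 9 of 66 matched clustered genes (13.6%), in 0 of 9 variants and in 5.76% of 27305 genes. CCAAT was found in 84.8%, 66.7% and 35.7%, and TATAAA in 66.7%, 44.4% and 12.0%, of the same sets. These matches describe the windows and were related to no change in level.

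**Figure D2:**
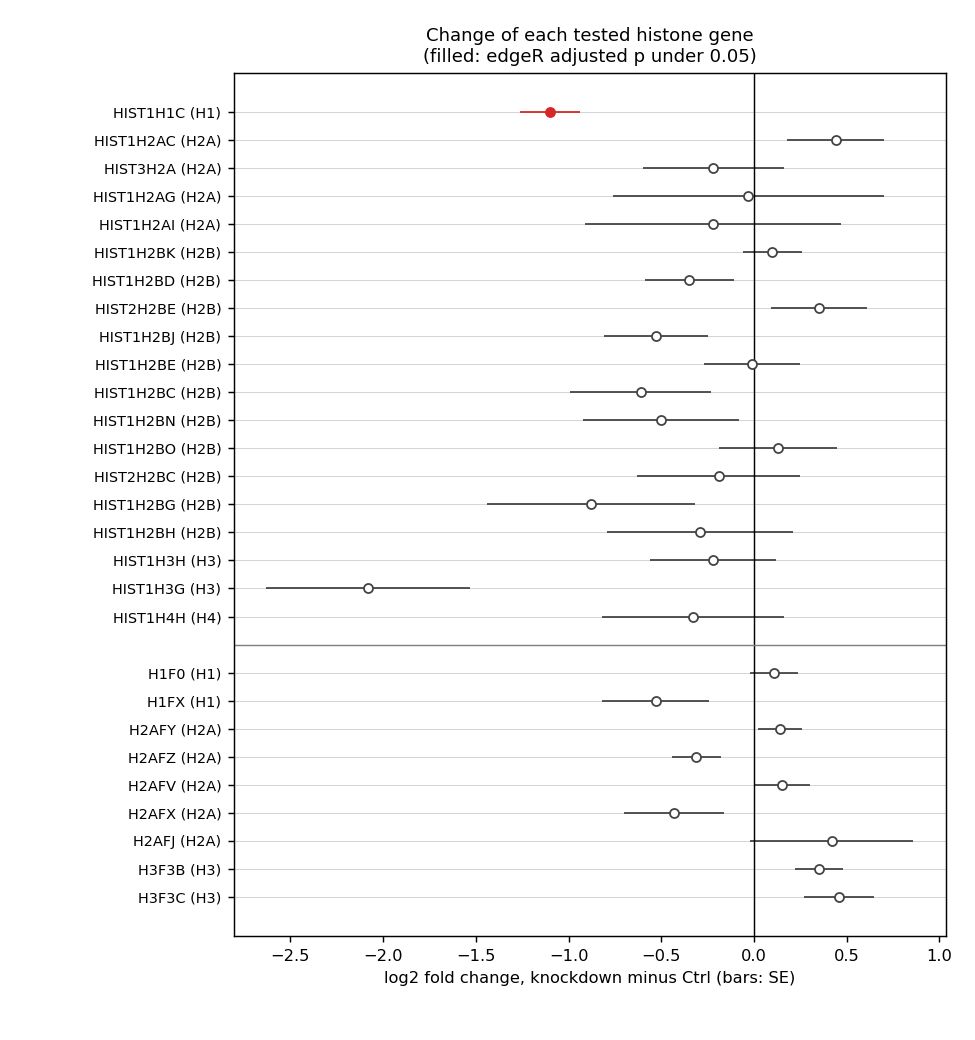
Log2 fold change of each tested histone gene, knockdown minus Ctrl, with its standard error as a bar (clustered genes above the line, variants below). The filled red point, HIST1H1C at -1.10, is the gene called at an adjusted p under 0.05, and the other bars are wide where reads are few.

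HIST1H2BK, the other abundant clustered gene, did not pass the test. It had 1603 reads in Ctrl 1 and 1044 in Ctrl 2, against 1533 in knockdown 1 and 1383 in knockdown 2, and the groups overlapped at 77.9 ± 11.3 against 83.4 ± 1.83 CPM (n = 2 each). Its change was 0.10 ± 0.16 on the log2 scale (edgeR adjusted p = 0.864). It was -0.04 without Ctrl 2, and 0.26 without Ctrl 1. Of the distinct 50-base words in its annotated transcript, 61.4% also occur in H2BFS, a near-identical H2B copy, whose 218, 284, 296 and 265 reads in the same order overlapped between groups. No source used here says how reads shared by such copies were assigned, and both values are uncertain.

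None of the other tested clustered genes passed the test. Over the 19 tested clustered genes, 15 log2 fold changes were below 0 (51.2% of all tested genes were) and the median was -0.22, against -0.01 for all genes. Without Ctrl 2 the clustered median was 0.04, over 22 genes, and without Ctrl 1 it was -0.63, over 26 genes. Without knockdown 1 and 2, 24 and 25 clustered genes were tested. The filter was rerun in each of these fits, where enough reads in 1 library let a gene in. Their medians therefore cover other genes than the main fit, and the shift from -0.22 mixes both changes. In 7 clustered genes both knockdown libraries lay under both controls, in 1 they lay above, and in 11 the groups overlapped. HIST1H3G, among the 7, passed the filter through its control reads alone. Among all tested genes 46.1% had groups that did not overlap, 23.0% lower and 23.1% higher.

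Among the H2A genes, HIST1H2AC had 70 and 83 reads in Ctrl and 121 and 99 in the knockdown, with no overlap (4.65 ± 1.28 against 6.28 ± 0.571 CPM). Its log2 fold change of 0.44 ± 0.26 did not pass (edgeR adjusted p = 0.497). It was 0.75 without Ctrl 2 (adjusted p = 0.00112, with 48.4% of all genes called), 0.18 without Ctrl 1 (adjusted p = 0.478), and not called without either knockdown library (adjusted p = 1.0 each time). It was also called, at 0.47, with the GC correction and the replicate block together (edgeR adjusted p = 0.0469). That fit called 38.0% of all genes. The other 3 tested H2A genes, HIST3H2A, HIST1H2AG and HIST1H2AI, had overlapping groups and values from -0.22 to -0.03. HIST1H2AG had 4 reads in Ctrl 1 and 20 in Ctrl 2, with 11 and 14 in the knockdown, so its controls enclosed the knockdown.

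Of the 11 tested H2B genes, 8 had values below 0 and none was called. HIST1H2BD, the next most abundant, had 142 and 86 reads in Ctrl and 103 and 81 in the knockdown, at a log2 fold change of -0.35 ± 0.24 (edgeR adjusted p = 0.571). Without Ctrl 2 it was -0.53, and without Ctrl 1 it was -0.13. HIST2H2BE had 79 and 53 reads against 105 and 69, at 0.35 ± 0.26 (edgeR adjusted p = 0.626), and its groups overlapped. HIST1H2BG had 14 and 11 reads against 11 and 3, at -0.88 ± 0.56 (edgeR adjusted p = 0.528). The knockdown libraries differed from each other by more than the controls did in that gene. HIST1H2BO, with 20 and 17 reads against 20 and 22, was at 0.13 ± 0.32 (edgeR adjusted p = 0.911).

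HIST1H2AC and HIST1H2BC are transcribed away from each other, with 219 bases between their annotated starts, and their values lay on opposite sides of 0. HIST1H2BC had 37 and 28 reads in Ctrl and 15 and 29 in the knockdown, at -0.61 ± 0.38 (edgeR adjusted p = 0.534), against 0.44 for HIST1H2AC; neither passed and the difference between the genes was not tested. With 1 library left out, HIST1H2BC ran from -1.21 to -0.13 and HIST1H2AC from 0.18 to 0.75. Part of the stretch that both genes share is printed, from -200 to -26 of HIST1H2AC on its strand. This numbering is from the RefSeq start (GRCh38.p14), while the distance above is by GENCODE starts. The bases next to the start of HIST1H2BC are left out. CCAAT, the octamer ATTTGCAT and TATAAA are in capitals on either strand:
HIST1H2AC (chr6:26123972-26124146, plus strand): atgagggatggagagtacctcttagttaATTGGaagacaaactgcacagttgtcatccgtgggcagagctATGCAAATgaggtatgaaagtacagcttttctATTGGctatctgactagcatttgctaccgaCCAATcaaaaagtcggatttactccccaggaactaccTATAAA
The stretch holds 1 octamer, reading towards HIST1H2BC, and CCAAT in both orientations. The octamer, bound by POU2F1, was found in 26 of 66 clustered windows (39.4%), in 11.1% of variant windows and in 1.80% of all. HIST1H2BJ and HIST1H2AG, 292 bases apart, were the other such pair with both genes tested, at -0.53 and -0.03.

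The H3 and H4 clustered genes were near the limit of detection. HIST1H3G had 13 and 16 reads in Ctrl and 5 and 2 in the knockdown, and its log2 fold change was -2.08 ± 0.55 (edgeR adjusted p = 0.147). Only the control libraries held enough reads for the filter, so its change and the separation of its groups are not independent of that filter. The knockdown libraries lay under both controls but the gene was not called. It was called without Ctrl 1 (-2.37, adjusted p = 0.00167), without Ctrl 2 (-1.76, adjusted p = 0.0352) and without a filter on low counts (adjusted p = 0.0484), where the shares of all genes called were 44.0%, 48.4% and 3.89%. It was also called with the replicate number as a block (-2.07, adjusted p = 0.0105), with a correction for GC content (-2.05, adjusted p = 0.0376) and with both (-2.07, adjusted p = 0.00422), where 6.54%, 28.1% and 38.0% of all genes were. It was not called without knockdown 1 (-2.78, adjusted p = 0.436) or without knockdown 2 (-1.63, adjusted p = 1.0). HIST1H3H, with 21 and 17 reads against 20 and 14, was at -0.22 ± 0.34. HIST1H4H, the 1 tested H4 gene, had 11 and 19 reads against 10 and 15 and was at -0.33 ± 0.49, with overlapping groups.

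Summed by family, only H1, through HIST1H1C, had levels that did not overlap between the groups. The 6 H1 rows summed to 98.6 CPM in Ctrl 1 and 114.7 in Ctrl 2, against 48.9 in knockdown 1 and 50.8 in knockdown 2. The 20 H2B rows summed to 111.7, 94.8, 107.3 and 102.4 CPM in the same order, with overlap. The H2A rows summed to 7.01, 14.8, 11.3 and 10.2, the H3 rows to 3.05, 6.29, 3.54 and 3.62, and the H4 rows to 1.07, 4.02, 2.05 and 2.44 CPM. In the H2A, H3 and H4 families Ctrl 2 was the highest library and Ctrl 1 the lowest, with the knockdown libraries between them. Without HIST1H1C and HIST1H2BK, a sum added after seeing the data, clustered genes took 37.6, 51.6, 40.0 and 36.9 CPM, and the log2 ratio of knockdown to Ctrl was -0.21 over both controls, 0.03 against Ctrl 1 and -0.42 against Ctrl 2.

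Ctrl 2 stood above the other libraries in clustered genes with few reads and in those with no annotated AATAAA. The 39 clustered rows with a read that were not tested, all with at most 17 reads in a library, summed to 4.55 CPM in Ctrl 1 and 14.8 in Ctrl 2, against 6.80 in knockdown 1 and 6.65 in knockdown 2. Of those 39 rows, 37 were higher in Ctrl 2 than in Ctrl 1, and 32 were highest of all in Ctrl 2. Leaving aside HIST1H1C and HIST1H2BK, the 50 clustered rows without AATAAA near a transcript end summed to 9.26, 21.0, 10.6 and 10.4 CPM. The 22 rows with it summed to 28.3, 30.7, 29.4 and 26.5 CPM. RNAs that mostly lack a poly(A) tail were also highest in Ctrl 2, at 167.5 CPM against 40.2 to 54.4. GC-rich genes were higher there than in Ctrl 1, at a median log2 ratio of 0.68 in the fifth highest in GC. Many rows without AATAAA are annotated as the coding region alone, and whether their RNA lacks a tail was not measured. The parts of poly(A) tails and GC content in these sums were not tested.

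**Figure D3:**
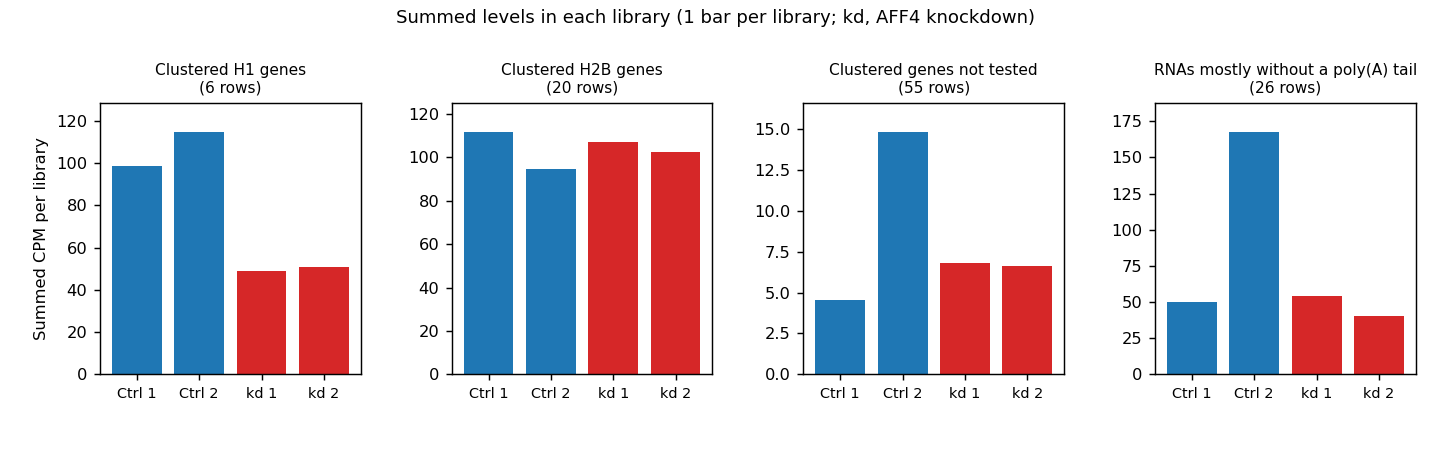
Summed CPM in each library for the 6 clustered H1 rows, the 20 clustered H2B rows, the 55 clustered rows that were not tested (16 of them at 0) and 26 rows of RNAs that mostly lack a poly(A) tail, with 1 bar per library. The H1 bars are lower in both knockdown libraries, while in the last panels Ctrl 2 stands above the 3 other libraries, at 14.8 and 167.5 CPM.

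The variant genes had log2 fold changes between -0.53 and 0.46, and none was called by edgeR, DESeq2 or limma-voom. Without Ctrl 1, 6 of 10 tested variants were called, and without Ctrl 2, 4 of 10, in the fits that called 44.0% and 48.4% of all genes, and without knockdown 1 or 2 none was. The median log2 fold change of the 9 tested variants was 0.14, with 3 below 0 and 6 above. In 5 of them both knockdown libraries lay above both controls (H1F0, H2AFV, H2AFY, H3F3B and H3F3C), in H2AFZ they lay below, and in H1FX, H2AFX and H2AFJ the groups overlapped. Of all tested genes 23.1% lay above and 23.0% below in this way.

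H3.3, the replacement form of H3 laid down outside replication, is encoded by H3F3A and H3F3B. H3F3B had 5692 reads in Ctrl 1 and 4286 in Ctrl 2, against 6821 in knockdown 1 and 6345 in knockdown 2, or 295.8 ± 12.6 against 376.9 ± 0.110 CPM (n = 2 each). Both knockdown libraries were higher, at a log2 fold change of 0.35 ± 0.13 (edgeR unadjusted p = 0.028, adjusted p = 0.266). H3F3C, a retrocopy that encodes H3.5, had 491 and 486 reads against 722 and 694, at 0.46 ± 0.19 (edgeR adjusted p = 0.304). It shares 21.8% of its 50-base words with H3F3B, and how shared reads were handled is not stated, so the pair may not be independent measurements. Without Ctrl 2 both were called (H3F3B 0.31, adjusted p = 1.14e-05; H3F3C 0.62, adjusted p = 1.21e-08), and without Ctrl 1 too (0.40, adjusted p = 3.61e-08, and 0.32, adjusted p = 0.00576), in fits that called 48.4% and 44.0% of all genes. Without either knockdown library both had an adjusted p of 1.0.

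H2A.Z, the variant placed at promoters by SRCAP and EP400, is encoded by H2AFZ and H2AFV. H2AFZ had 6080 reads in Ctrl 1 and 4673 in Ctrl 2, against 4674 in knockdown 1 and 4315 in knockdown 2, or 319.2 ± 8.98 against 257.3 ± 1.45 CPM (n = 2 each). The knockdown libraries were lower, at a log2 fold change of -0.31 ± 0.13 (edgeR unadjusted p = 0.0442, adjusted p = 0.315), and the value was -0.28 without Ctrl 1 and -0.34 without Ctrl 2, called both times (adjusted p = 0.000117 and 5.53e-07) in fits that called 44.0% and 48.4% of all genes. Without either knockdown library its adjusted p was 1.0. H2AFV had 138.9 ± 12.4 against 154.7 ± 7.04 CPM, at 0.15 ± 0.15 (edgeR adjusted p = 0.715), and was called without Ctrl 1 (0.25, adjusted p = 0.00197) but not without Ctrl 2 (0.07, adjusted p = 0.447). H2AFY, which encodes macroH2A1, had 460.0 ± 0.843 against 508.2 ± 10.8 CPM, at 0.14 ± 0.12 (edgeR adjusted p = 0.672). H2AFJ had 12 and 6 reads against 11 and 14, too few for its 0.42 ± 0.44 to be told from 0.

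H2AFX and H1FX were high in Ctrl 2 alone. H2AFX, whose product H2A.X is phosphorylated around DNA breaks, had 1622 reads in Ctrl 1 and 2370 in Ctrl 2, against 1649 in knockdown 1 and 1538 in knockdown 2. H1FX, a linker variant, had 1095, 1640, 996 and 1040 reads in the same order. In CPM, Ctrl 2 exceeded Ctrl 1 by 0.87 for H2AFX and 0.91 for H1FX on the log2 scale, and the knockdown libraries stayed near Ctrl 1. Their transcripts are 66.42% and 68.61% GC, in the fifth of genes where the median of Ctrl 2 over Ctrl 1 was 0.68. The log2 fold changes were -0.43 ± 0.27 for H2AFX and -0.53 ± 0.29 for H1FX (edgeR adjusted p = 0.531 and 0.459). Without Ctrl 2 they were 0.07 and -0.01, and without Ctrl 1 they were -0.80 and -0.91. With a correction for GC content in each library both were called as lower, H2AFX at -0.36 (adjusted p = 0.00941) and H1FX at -0.46 (adjusted p = 0.00471), in a fit that called 28.1% of all genes. The variants H2AFZ (-0.32, adjusted p = 0.00316) and H3F3B (0.33, adjusted p = 0.00548) were called in that fit too. With the replicate block added H2AFX and H1FX were again at -0.36 and -0.46 (adjusted p = 4.29e-06 and 5.63e-07, with 38.0% of all genes called). H2AFZ, H3F3B, H3F3C and H2AFV were also called there.

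H1F0, the replacement linker histone of differentiated and resting cells, had 8241 and 7244 reads in Ctrl and 8948 and 8529 in the knockdown. Its 463.1 ± 30.9 and 500.6 ± 8.48 CPM (n = 2 each) gave a log2 fold change of 0.11 ± 0.13 (edgeR adjusted p = 0.775), and it was called without Ctrl 2 (0.18, adjusted p = 0.0112, with 48.4% of all genes called) but not without Ctrl 1 (0.05, adjusted p = 0.571) or without either knockdown library (adjusted p = 1.0 each time). The linker genes HIST1H1C, H1F0 and H1FX thus stood at 105.6, 463.1 and 84.2 CPM in Ctrl and at 49.4, 500.6 and 58.4 CPM in the knockdown. The differences between their changes were not tested.

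Some members could not be measured from this table. H3F3A was listed at 0 in all 4 libraries, while H3F3AP4, a processed pseudogene, had 3358, 1976, 3055 and 2855 reads. All 362 distinct 50-base words of the pseudogene occur in H3F3A transcripts, so the reads of its row cannot be assigned between them. These words are 11.7% of the 3092 in H3F3A transcripts, so most of that gene's sequence is not shared with the pseudogene. Why H3F3A is at 0 was not tested. The pseudogene row had a log2 fold change of 0.12 ± 0.18 (edgeR adjusted p = 0.848). Of the 16 clustered genes at 0, 6 form near-identical pairs, HIST2H2AA3 with HIST2H2AA4, HIST2H3A with HIST2H3C, and HIST2H4A with HIST2H4B, whose transcripts share at least 97.1% of their words with another gene. Their zeros need not mean absence of RNA. The other 10 include HIST1H2AA, HIST1H2BA and HIST3H3, known from testis, where 0 reads allow up to 0.201 CPM in the shallowest library at a limit of 3 reads. H2AFY2, which encodes macroH2A2, had 5 and 6 reads in Ctrl and 5 and 14 in the knockdown and was not tested.

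The genes that make, mature, degrade or carry histones were read from 4 lists, 79 genes in all, with NPAT counted once. By edgeR, 0 of 79 were called in either direction, 6 were lower and 1 higher at an unadjusted p under 0.05 (15.0% of all tested genes passed it), and 11 were lower and 11 higher without overlap of the groups (46.1% of all tested genes). DESeq2 called 1, HJURP, as lower, and limma-voom called 0. The median log2 fold change over the lists was -0.05. With 1 control left out the number called was 41 (without Ctrl 1, where 44.0% of all genes were called) or 46 (without Ctrl 2, 48.4%), and with 1 knockdown library left out it was 0.

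Among 12 factors of histone gene transcription the median was -0.03. CCNA2, the S and G2 cyclin, had 3271 and 2094 reads in Ctrl and 1899 and 1733 in the knockdown, at -0.60 ± 0.16 (edgeR adjusted p = 0.151). E2F2, an activator of replication genes, had 547 and 553 against 390 and 411 reads, at -0.53 ± 0.20 (edgeR adjusted p = 0.278). Both were lower in the 2 knockdown libraries without being called. NPAT, the coactivator that cyclin E and CDK2 phosphorylate at the histone clusters, was at 0.13 ± 0.18 with overlapping groups.

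The 21 factors of stem-loop processing had a median of 0.01, and all but 4 had overlapping groups. SLBP, which binds the stem-loop printed above, had 4016 and 2555 reads against 3766 and 3349, at 0.08 ± 0.16 (edgeR adjusted p = 0.896). CSTF2T, a paralog of the cleavage factor CSTF2, was at 0.18 ± 0.15, and SNRPD3, an Sm protein of the U7 particle, at 0.15 ± 0.14 (edgeR adjusted p = 0.681 and 0.72). For 15 genes of histone mRNA decay the median was -0.12, with the exonucleases XRN1 at -0.35 ± 0.18 and DIS3L2 at 0.27 ± 0.18 (edgeR adjusted p = 0.429 and 0.555).

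The 32 chaperones and related genes had a median of -0.05, and the pair of smallest p belong to the centromere. HJURP, the chaperone of CENP-A, had 2437 and 1789 reads in Ctrl and 1500 and 1335 in the knockdown, at -0.63 ± 0.15 (edgeR adjusted p = 0.112). CENPA, the centromeric H3 variant itself, had 834 and 582 against 507 and 504, at -0.53 ± 0.18 (edgeR adjusted p = 0.226). Neither group pair overlapped. NASP, the H3 and H4 chaperone, was at -0.03 ± 0.14 with overlapping groups.

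**Figure D4:**
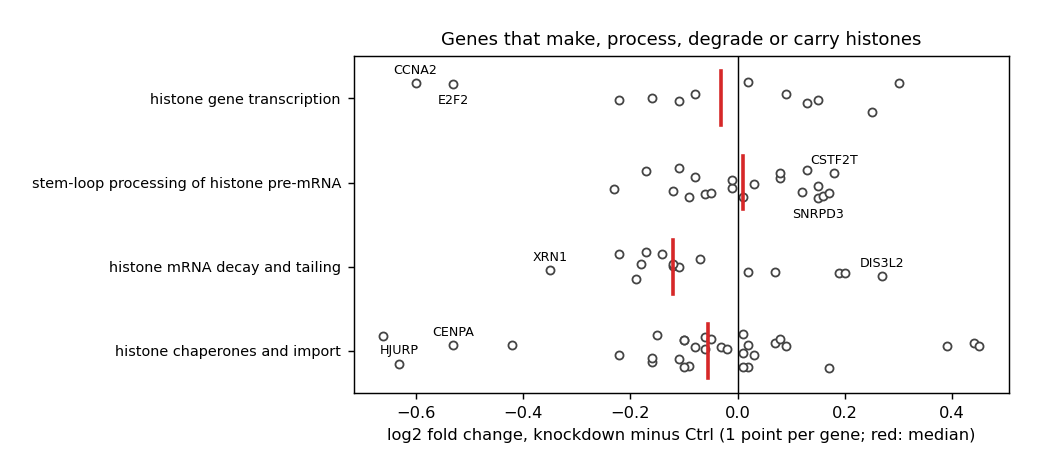
Log2 fold change, knockdown minus Ctrl, of the genes on 4 lists, with 1 point per gene and the list median in red (vertical scatter has no meaning). The medians lie between -0.12 and 0.01, and the labelled genes are the pair of smallest p in each list.

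Cell-cycle genes are given beside these values because clustered histone RNA follows S phase. Of 42 genes of DNA replication, 34 had log2 fold changes below 0 (51.2% of all tested genes did), at a median of -0.18. By edgeR, DESeq2 or limma-voom 0 were called, and by edgeR 3 were lower and 0 higher at an unadjusted p under 0.05. In 20 of the 42 both knockdown libraries lay under both controls, and in 3 above (23.0% and 23.1% of all tested genes). Of 30 genes of mitosis and G2/M all 30 were below 0, at a median of -0.54, and edgeR called 1, MAD2L1 (-1.22 ± 0.16, adjusted p = 0.0394), with limma-voom calling 1 and DESeq2 9, each time as lower. At an unadjusted p under 0.05, 26 of these 30 were lower (8.19% of all tested genes were), and in 29 both knockdown libraries lay under both controls (23.0% of all tested genes). The part of the cell cycle in the HIST1H1C result was not tested.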

How the data were processed

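Poly(A) RNA-seq of 2 Ctrl and 2 AFF4_KD libraries was analysed. The authors deposited raw counts, whole numbers of reads for each gene symbol. Per the submitters' processing notes, fastp 0.13.1, HISAT2 2.1.0, featureCounts 1.6.1 and hg38 were used, with no role or order stated. Per the labels' protocols the kit marks strand by dUTP. No source used here gives the annotation, strand setting or handling of multi-mapped reads, and near-identical and overlapping genes are therefore uncertain. The labels name more than one RNA kit and sequencer without tying libraries to them.

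Counts were fitted on the whole table with edgeR 4.0.16 (R 4.3.3; filterByExpr, minimum count 10 and minimum total count 15; TMM; quasi-likelihood F test; group as the only term), which left 13572 genes, with Benjamini-Hochberg adjustment over all of them and calls at an adjusted p under 0.05. TMM treats most genes as unchanged. SE is |log2 fold change| over the root of F. Total counts ran from 14903878 to 19129008, and with 2 libraries a group precision rests on spread shared across genes (common biological coefficient of variation 0.153). The script was tested on simulated data.

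Gene models came from GENCODE v29 and promoters from RefSeq GRCh38.p14, where 66 of 74 clustered and 9 of 11 variant genes matched by symbol and position. The members and lists were chosen with earlier results of these data known. Named genes are AFF4, each tested variant, called clustered genes, the 5 most abundant and the 4 most negative and 4 most positive clustered changes, and the 2 of smallest p per pathway list. Other members, the copies H3F3AP4 and H2BFS, SLBP, NPAT, NASP, RN7SK and MAD2L1 were named after their values were seen. Alternatives were scaling by RLE, by upper quartile or by library size alone, a filter of 5 CPM in 2 libraries or none, DESeq2 1.42.0, limma-voom (limma 3.58.1), a replicate block, a lowess GC correction (span 0.4) with and without the block, and leaving out each library.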

Additional observations from a re-analysis of the deposited data

How the results depend on the processing

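HIST1H1C kept its direction under every alternative run, and AFF4 did too; under the 5 CPM filter AFF4 was at -2.10 with an adjusted p of 0.0552. The number of clustered genes called was 0 with library-size scaling, 0 with the 5 CPM filter (4 tested), 2 without a filter (58 tested), 2 with the GC correction and 0 to 6 when 1 library was left out. The number of variants called was 4 with the GC correction and 0 to 6 with 1 library left out. The number of pathway genes called was 2 without a filter, 1 with DESeq2, 14 with the GC correction and 0 to 46 with 1 library left out. These counts moved with the background, which was 3.89% of all genes without a filter, 28.1% with the GC correction, 48.4% without Ctrl 2, 44.0% without Ctrl 1, and 0.331% and 0.366% without knockdown 1 and 2. Without a control, the spread comes from the knockdown pair alone (SD over genes of the log-CPM difference 0.225, against 0.492 for the controls), and the lone control is assumed to vary like it.

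The replicate numbers are shared between groups, but the labels give no pairing, and 2 pairs cannot show one (correlation of deviations 0.285). With the replicate block 2 clustered genes (HIST1H1C and HIST1H3G), 0 variants and 2 pathway genes were called, at a background of 6.54%. With the GC correction and the block together 3 clustered genes, 6 variants and 21 pathway genes were called, at a background of 38.0%.

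The median of clustered genes was -0.49 without a filter and -0.63 to 0.04 with 1 library left out, where 0.04, without Ctrl 2, reverses its sign. The filter was rerun in each fit, so these medians cover different sets of genes. The variant median was 0.17 with library-size scaling, 0.09 with the 5 CPM filter and 0.15 to 0.20 with 1 library left out. The log2 ratio of summed clustered CPM was -0.21 without HIST1H1C and HIST1H2BK and -0.45 to -0.37 with 1 library left out, and that of the variants 0.01 to 0.10. With 1 library left out H2AFX ran from -0.80 to 0.07 and HIST1H2BK from -0.04 to 0.26, both with the opposite sign without Ctrl 2; the cause was not tested. Of the 19 tested clustered genes 15 had a mean under 5 CPM, with standard errors of 0.26 to 0.73 on the log2 scale.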
